A study of Homo sapiens with 12 samples.

Results

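The hypoxia gene ADM and 9 genes of the HIF-1 pathway were followed in CCRF-CEM, an established cell line from a human T lymphoblast leukemia. The 10 genes were HIF1A, VEGFA, SLC2A1, PDK1, BNIP3, BNIP3L, EGLN3, ANKRD37, P4HA1 and ADM, taken by symbol from 43828 listed gene places, and all 10 passed the filter on low counts. There were 4 groups of 3 libraries: wild-type parent cells given the solvent DMSO, parent cells given 100 nM camptothecin for 4 h, and cells labelled SLFN11 knockout given DMSO or the same camptothecin dose and time. Camptothecin locks topoisomerase I onto DNA, and SLFN11 makes cancer cells more sensitive to drugs of this kind. The comparisons ask how the drug changed hypoxia genes in each genotype and how the genotypes differed before the drug. Neither the making of the knockout nor its clonality is given in the labels, nor whether replicates were grown apart, so the p-values cover the variation among these libraries alone, which may be technical.

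HIF-1 is a transcription factor made of the oxygen-regulated subunit HIF1A and its stable partner ARNT. In oxygen, prolyl hydroxylases of the EGLN family mark HIF1A for the VHL ubiquitin ligase, which sends it to the proteasome, so HIF1A is controlled largely as a protein, which RNA reads do not measure. Stabilized HIF-1 binds a short core motif in DNA and turns on genes for glucose uptake, glycolysis, angiogenesis and the removal of mitochondria.

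ADM was selected on its exon reads in parent cells, where it ranked 4 among the falls of genes with a mean of 1 CPM or more (exon reads per 1e6 reads) and no overlap between groups, and the other 9 genes were joined to it as HIF1A itself and well-known HIF-1 targets. At the edge of a top 10 of that ranking stood HSPA1A, 4.88-fold lower, just inside, and PTPRD, 4.68-fold lower, just outside. For that reason the parent response of the 10 genes, and the difference between both responses, are given here as values without a test. The knockout response and the comparison of untreated cells are not part of that ranking and were tested, although the genes were chosen with earlier results of these data known and the untreated comparison shares the parent controls with the ranking.

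The promoters of 8 of the 10 genes matched the RefSeq promoter table (build GRCh38.p14, 250 bases before to 50 after a start), which holds 10 windows for them. No window was found for VEGFA and BNIP3L. Windows were searched on both strands for ACGTG and GCGTG, the letters of the HIF-1 core motif. At least 1 match stood in 7 of the 10 windows, against 48.4% of all 35116 windows, and ACGTG itself stood in 4, against 21.4%. The 180 bases before the start are shown for the gene with the largest fall, ADM (chr11:10304893-10305072, plus strand), and for 3 targets with ACGTG on either strand, BNIP3 (chr10:131981924-131982103, minus strand), ANKRD37 (chr4:185396661-185396840, plus strand) and P4HA1 (chr10:73096867-73097046, minus strand). They are printed 5′ to 3′ on the strand of the gene, and capitals mark the matches.
ADM: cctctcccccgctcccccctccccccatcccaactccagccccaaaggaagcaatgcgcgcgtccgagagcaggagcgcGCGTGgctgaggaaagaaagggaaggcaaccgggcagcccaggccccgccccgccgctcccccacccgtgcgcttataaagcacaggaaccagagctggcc
BNIP3: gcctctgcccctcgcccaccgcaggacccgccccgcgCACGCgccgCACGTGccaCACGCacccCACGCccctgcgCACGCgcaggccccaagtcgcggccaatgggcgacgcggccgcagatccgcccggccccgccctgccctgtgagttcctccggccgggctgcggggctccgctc
ANKRD37: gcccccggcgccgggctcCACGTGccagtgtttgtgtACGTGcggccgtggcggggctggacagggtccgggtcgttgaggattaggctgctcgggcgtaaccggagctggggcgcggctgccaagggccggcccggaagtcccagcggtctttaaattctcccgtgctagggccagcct
P4HA1: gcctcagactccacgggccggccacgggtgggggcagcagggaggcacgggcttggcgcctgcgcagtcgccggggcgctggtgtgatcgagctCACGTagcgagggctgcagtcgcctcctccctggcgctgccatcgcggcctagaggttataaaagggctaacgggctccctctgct
BNIP3 held 6 matches within this stretch, some of them overlapping, and ANKRD37 held 3. ADM held 1, GCGTG starting at position -101 from the start, and P4HA1 held 1, which read ACGTG on the reverse strand. PDK1 carried 2 reverse-strand ACGTG matches at -17 and -8 of its second window, HIF1A a GCGTG at -204 of its first window, and SLC2A1 a GCGTG at 26 bases past the start. The EGLN3 window held none. A match is a run of letters and not a measured binding site.

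The exon reads per library numbered 135592046 for parent control replicate 1, which stood apart, and 42439957 to 63606344 for the other 11. A chi-square of its counts against those of the other parent controls came to 193.4 and 152.8 per degree of freedom, where the remaining pairs within a group came to 4.98 to 18.8, a measure that also grows with depth. Some of the results that rest on it are also given without it, and other parent values below include it. SLFN11 was still transcribed in the libraries labelled knockout, at 86.9 ± 1.57 CPM (SD, n = 3) against 112 ± 4.95 in untreated parent cells (log2 -0.37, adjusted p 0.000133, edgeR's quasi-likelihood test), and the counts do not show whether protein is made. Its intron reads went the other way, at 110 ± 0.971 CPM in untreated knockout and 73.6 ± 1.05 CPM in untreated parent cells, values given without a test. The 9 T lymphoblast markers were all tested. Between untreated genotypes 4 of them were called higher and 1 lower in knockout cells, where 8.26% and 7.44% of all genes tested were. CD1A stood at 101.8 ± 0.227 CPM in untreated knockout and 42.8 ± 5.05 CPM in untreated parent cells (adjusted p 3.8e-09, edgeR's quasi-likelihood test). PTCRA (log2 1.37), LCK (log2 0.27) and CD5 (log2 0.24) were also higher, and CD7 was lower (log2 -0.46). Of the markers of other lineages COL1A2 and CDH5 had 0 exon reads in every library. The symbols MS4A1, S100A8, HBB and PECAM1 were listed for no library. They counted as 0, but absent reads and a symbol missing from the annotation cannot be told apart. The B-lineage markers CD79A and VPREB1 had reads. The 5 genes of their list, MS4A1 counted as 0, summed to 27.9 to 31.3 CPM in parent controls and 39.1 to 42.3 CPM in knockout controls. The epithelial marker EPCAM was higher in untreated knockout than parent cells (6.76 ± 0.0521 against 1.3 ± 0.359 CPM, adjusted p 5.54e-08). Myeloid and erythroid markers summed to at most 1.06 and 0.961 CPM. The part of these differences in the results was not tested. Levels below are exon reads in CPM, scaled to library sizes adjusted by the TMM method, and a gene was called changed at a Benjamini-Hochberg adjusted p below 0.05 over 23546 genes.

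In knockout cells, 4 h of camptothecin lowered most of these genes. By edgeR's quasi-likelihood test 8 of the 10 fell and 0 rose, and DESeq2 gave the same counts, while 9.28% of all genes tested fell and 7.3% rose. All 10 log2 changes were below 0, and their median was -0.67, against 0.02 over all genes. ADM fell most, followed by VEGFA, ANKRD37, BNIP3, SLC2A1, PDK1, P4HA1 and HIF1A.

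**Figure D1:**
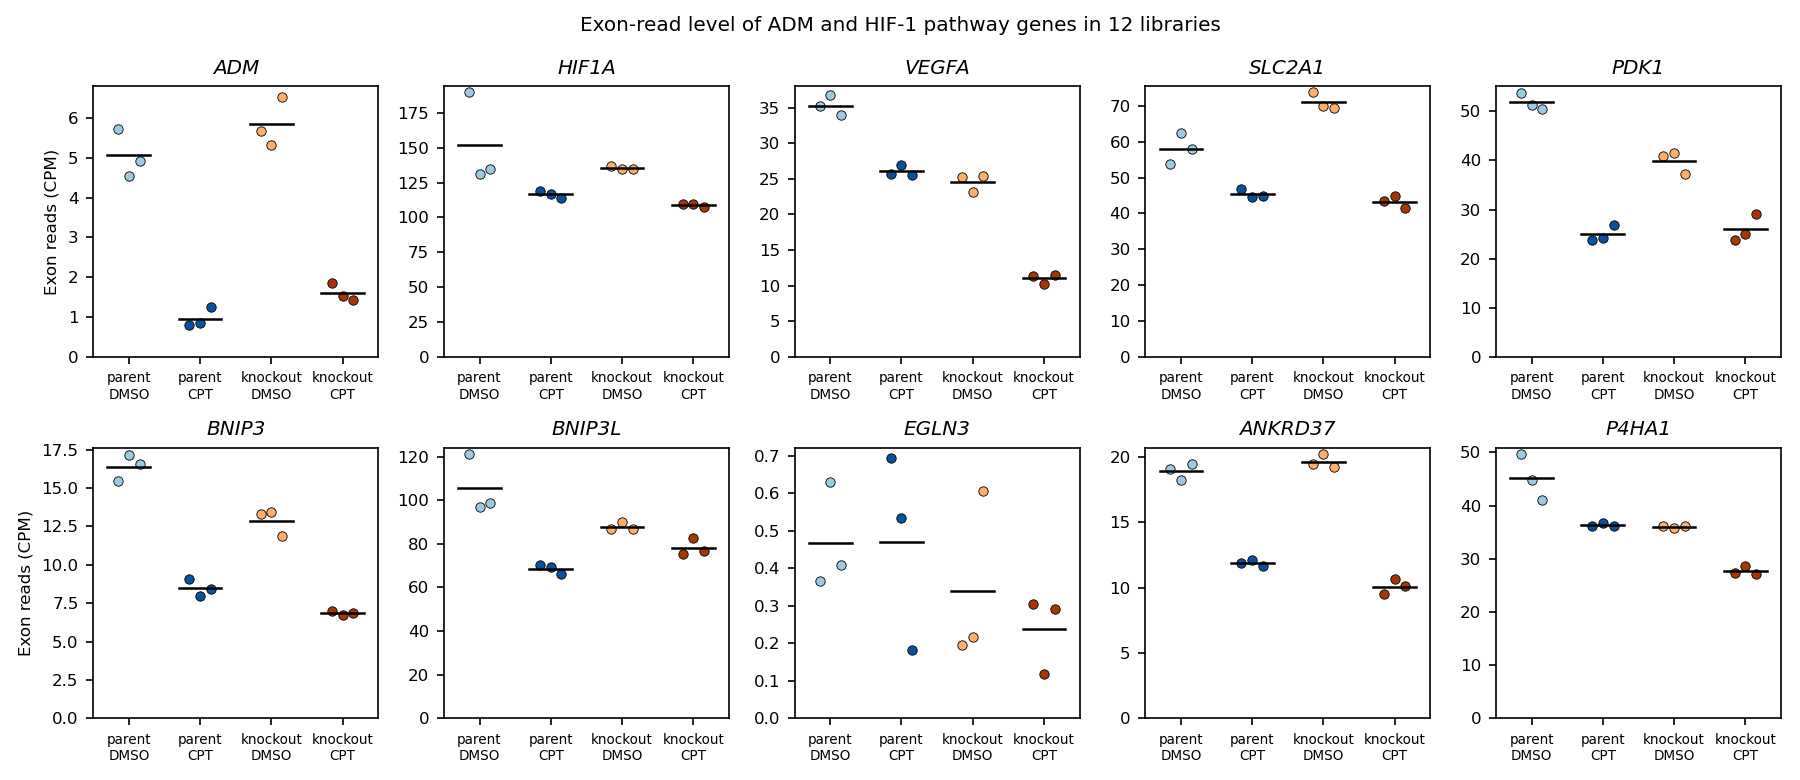
Exon-read level (CPM) of the 10 genes in each of 12 libraries, by group; points are libraries and black lines are group means, and each y axis starts at 0 with its own range. ADM stood at 4.55 to 6.52 CPM in all DMSO libraries and at 0.788 to 1.85 CPM in all camptothecin (CPT) libraries, and EGLN3 stayed below 1 CPM throughout.

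ADM encodes the precursor of adrenomedullin, a secreted peptide that widens blood vessels. It lies at chr11:10326226-10328943 (hg19, as are all positions of genes below), and the deposited tables give it no intron length. In knockout cells it measured 5.68, 5.32 and 6.52 CPM with DMSO and 1.85, 1.52 and 1.42 CPM with camptothecin. The lowest control library was thus well above the highest treated one. The fall was 3.66-fold (log2 -1.87 ± 0.18 SE, adjusted p 1.16e-06). In parent cells the levels were 5.72, 4.55 and 4.91 CPM against 0.788, 0.842 and 1.25 CPM, or 5.32-fold lower. Untreated knockout and parent cells overlapped in ADM (log2 0.20 ± 0.16, adjusted p 0.46). The reads behind the treated values were few, 50 to 68 per parent library and 68 to 90 per knockout library.

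VEGFA (chr6:43737920-43754223), the principal growth factor for blood vessels, showed the lowest level of all groups in treated knockout cells. It measured 25.2, 23.1 and 25.5 CPM in knockout controls and 11.3, 10.2 and 11.5 CPM after camptothecin, a 2.24-fold fall (log2 -1.16 ± 0.07, adjusted p 6.87e-09). Parent cells started higher, at 35.2, 36.7 and 33.9 CPM, and stood at 25.6, 27.0 and 25.6 CPM with the drug, 1.35-fold lower. Untreated knockout cells thus stood just below treated parent cells. The gap between untreated genotypes passed the test (log2 -0.52 ± 0.07, adjusted p 4.76e-05), with 3 of 3 knockout libraries below all parent libraries.

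SLC2A1 (chr1:43391051-43424529) encodes GLUT1, the glucose transporter of most proliferating cells. It was the only one of the 10 genes called higher in untreated knockout than in untreated parent cells (log2 0.29 ± 0.06, adjusted p 0.00442). The control levels were 73.9, 69.8 and 69.3 CPM in knockout cells and 53.8, 62.3 and 57.9 CPM in parent cells. With camptothecin the genotypes met at 43.5, 44.9 and 41.6 CPM in knockout and 46.9, 44.4 and 44.9 CPM in parent cells, and these values overlapped. The knockout fall was 1.64-fold (log2 -0.71 ± 0.06, adjusted p 6.28e-07), and the parent level was 1.28-fold lower.

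PDK1 (chr2:173420100-173489822) encodes a kinase that shuts off pyruvate dehydrogenase and so keeps pyruvate out of mitochondria. It showed the reverse order: parent cells started at 53.7, 51.3 and 50.5 CPM, above the 40.98, 41.6 and 37.3 CPM of knockout cells (log2 -0.38 ± 0.08, adjusted p 0.00333). Camptothecin brought knockout cells to 23.7, 25.0 and 29.1 CPM, a 1.54-fold fall (log2 -0.62 ± 0.08, adjusted p 3.53e-05). Treated parent cells measured 23.9, 24.1 and 26.9 CPM, 2.08-fold below their controls, and overlapped with treated knockout cells.

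BNIP3 (chr10:133781577-133795434) and its relative BNIP3L on chromosome 8 encode receptors on the outer mitochondrial membrane that direct mitochondria to autophagy. BNIP3 fell from 13.3, 13.4 and 11.9 CPM to 6.97, 6.72 and 6.85 CPM in knockout cells, 1.88-fold (log2 -0.91 ± 0.09, adjusted p 1.81e-06). Parent cells measured 15.4, 17.1 and 16.6 CPM and then 9.08, 7.94 and 8.41 CPM, 1.93-fold lower. Groups did not overlap in either genotype.

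BNIP3L was the abundant member of the pair and had the smallest log2 change of the 10 genes in knockout cells. It measured 86.6, 90.1 and 86.8 CPM in knockout controls and 75.4, 82.6 and 76.6 CPM after camptothecin, and this difference did not pass the test (log2 -0.17 ± 0.08, adjusted p 0.163). Without parent control replicate 1, which enters this comparison only through the shared fit, its adjusted p was 0.00359, within a range of 0.00359 to 0.898 over 19 alternatives. In parent cells the level was 1.54-fold lower, from 121, 96.8 and 98.7 CPM to 70.2, 69.3 and 66.3 CPM. Untreated knockout cells were lower than untreated parent cells in BNIP3 (log2 -0.35 ± 0.09, adjusted p 0.0115) and in BNIP3L (log2 -0.27 ± 0.08, adjusted p 0.0251). Scaled by library size alone, neither call held (adjusted p 0.0833 within 0.00176 to 0.0833 over alternatives for BNIP3, and 0.0614 within 0.0066 to 0.126 for BNIP3L), the BNIP3 call also ended without knockout control replicate 3 (0.0711), and the BNIP3L call ended without any of the 3 knockout controls (0.0638 to 0.0943); without parent control replicate 1 the BNIP3L difference was -0.16.

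ANKRD37 (chr4:186317174-186321781), a small ankyrin repeat protein known as a HIF-1 target, was level between untreated genotypes. Its controls measured 19.5, 20.2 and 19.2 CPM in knockout and 19.1, 18.2 and 19.5 CPM in parent cells (log2 0.05 ± 0.07, adjusted p 0.68). Camptothecin took knockout cells to 9.48, 10.6 and 10.1 CPM, a 1.95-fold fall (log2 -0.96 ± 0.08, adjusted p 1.06e-07). Parent cells stood at 11.9, 12.1 and 11.7 CPM, 1.59-fold lower. Only 1521 of its 2580 exon bases overlap no other annotated gene. Over the 19 alternatives, which include reads no other gene overlaps, its knockout log2 change ran from -1.22 to -0.81. The treated groups did not overlap between genotypes.

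P4HA1 (chr10:74766974-74856731) encodes a catalytic subunit of the prolyl hydroxylase that matures collagen. It fell 1.3-fold in knockout cells, from 36.1, 35.7 and 36.1 CPM to 27.3, 28.6 and 27.2 CPM (log2 -0.38 ± 0.07, adjusted p 0.00102). The parent controls were higher, at 49.8, 44.8 and 41.04 CPM (log2 -0.33 ± 0.07, adjusted p 0.0029, untreated knockout against parent), and treated parent cells at 36.2, 36.8 and 36.1 CPM were 1.25-fold below them. Without parent control replicate 1, the highest of the 3, the untreated difference was -0.26 with an adjusted p of 0.0011.

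HIF1A (chr14:62162230-62214975), the regulated subunit itself, had a smaller log2 change in knockout cells than 8 of the other 9 genes, a contrast that was not tested. Knockout cells went from 137, 134.6 and 134.7 CPM to 109, 109.6 and 107 CPM, 1.25-fold (log2 -0.32 ± 0.10, adjusted p 0.0478). The 3 values of each group lay close together and the groups did not overlap, but the call ended in 10 of 19 alternatives, with adjusted p from 8.55e-08 to 0.148. Those 10 were library size alone (0.148) and each fit without a knockout library or a treated parent library (0.0673 to 0.133). Parent controls measured 190, 131.5 and 134.7 CPM, so parent control replicate 1 was far above the other 2, and treated parent cells measured 119, 117 and 114 CPM. The parent response was 1.30-fold lower with that library and -0.19 on the log2 scale without it. Untreated genotypes did not differ by the test (log2 -0.17 ± 0.10, adjusted p 0.304), and the sign turned to 0.02 without that library. Only 1267 of the 4571 exon bases of HIF1A overlap no other annotated gene. Over the 19 alternatives, which include reads no other gene overlaps, its knockout log2 change ran from -0.32 to -0.16.

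EGLN3 (chr14:34393436-34931979), a prolyl hydroxylase that is itself a HIF-1 target, was close to silent. Exon reads per library were 43, 33 and 19 in parent controls, 44, 33 and 10 in treated parent cells, 10, 11 and 29 in knockout controls and 14, 7 and 14 in treated knockout cells. The groups compared overlapped, and neither the knockout response (log2 -0.52 ± 0.58, adjusted p 0.621) nor the untreated comparison (log2 -0.46 ± 0.54, adjusted p 0.627) passed the test. At this depth a change in EGLN3 was not detectable.

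Across all 10 genes, untreated knockout cells were lower than untreated parent cells in VEGFA, PDK1, P4HA1, BNIP3 and BNIP3L and higher in SLC2A1. That made 5 lower and 1 higher of 10, against 7.44% and 8.26% of all genes tested. The median log2 difference was -0.30, against -0.01 over all genes. This comparison shares its knockout controls with the knockout response and its parent controls with the parent response, so the 3 sets of values are not independent. Without knockout control replicate 3, or with library size alone, 3 of the 10 were lower.

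In parent cells 9 of the 10 genes were lower with camptothecin without overlap between the groups, where 22.1% of all genes tested were. ADM was chosen on this contrast, and nothing is read from that count. The response of knockout cells minus that of parent cells was -0.72 for VEGFA, -0.36 for SLC2A1 and -0.29 for ANKRD37, whose response was larger in knockout cells, and 0.54 for ADM, 0.46 for BNIP3L and 0.43 for PDK1, whose response was smaller. It was 0.07 for HIF1A, 0.04 for BNIP3 and -0.06 for P4HA1, which stood near 0, and -0.55 for the barely expressed EGLN3. Without parent control replicate 1 it was 0.44 for ADM, 0.35 for BNIP3L and -0.13 for HIF1A. These differences are values and were not tested.

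Compared per kilobase of merged exon, which sets long and short transcripts on 1 scale, HIF1A was the highest of the 10 in untreated parent cells at 33.3 ± 7.23 CPM per kb (SD, n = 3), followed by BNIP3L at 26.2 ± 3.39, SLC2A1 at 14.4 ± 1.06 and P4HA1 at 14.2 ± 1.38. BNIP3 at 7.76 ± 0.41 and ANKRD37 at 7.33 ± 0.25 came next, then PDK1 at 3.46 ± 0.11, VEGFA at 2.45 ± 0.0971, ADM at 1.86 ± 0.221 and EGLN3 at 0.0661 ± 0.0201. HIF1A stood above BNIP3L in each parent control, at 41.6, 28.8 and 29.5 against 30.1, 24.0 and 24.5 CPM per kb. The first of these values are from parent control replicate 1, which widened both spreads. Of 22376, 6879 and 6252 HIF1A exon reads in the parent controls, 7310, 2476 and 2244 lay where no other annotated gene overlaps. Its level per kb may thus include reads of another gene. SLC2A1 and P4HA1, and BNIP3 and ANKRD37, were neighbours whose order changed between the parent controls. In treated knockout cells ADM at 0.588 ± 0.083 CPM per kb and VEGFA at 0.763 ± 0.0463 were the lowest after EGLN3 at 0.0337 ± 0.0147. The exon length is the union of all annotated transcripts, 14431 bases for VEGFA and 14976 for PDK1, which lowers the per-length level of genes with many alternative exons.

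Intron reads come mostly from transcripts not yet spliced, so they give a readout apart from the exon reads. ADM has none to count. Of the other 9 genes, 8 fell in intron reads of knockout cells and 1 rose, where 9.05% and 7.85% of 19908 genes tested did. The steepest were ANKRD37, 2.91-fold (log2 -1.54 ± 0.13, adjusted p 3.26e-08), BNIP3, 2.85-fold (log2 -1.51 ± 0.09, adjusted p 2.59e-10) and VEGFA, 2.58-fold (log2 -1.37 ± 0.26, adjusted p 0.000597). P4HA1 (log2 -0.76), SLC2A1 (log2 -0.74) and PDK1 (log2 -0.63) fell with adjusted p of 4.37e-08, 3.62e-06 and 2.97e-05. HIF1A (log2 -0.23, adjusted p 0.0168) and BNIP3L (log2 -0.24, adjusted p 0.0385) passed narrowly. The HIF1A call ended in 6 of 15 alternatives (adjusted p 0.00143 to 0.175), among them library size alone and each fit without knockout control replicate 1, 2 or 3 or treated knockout replicate 1. The BNIP3L call ended in 7 of 15 (0.00241 to 0.23), among them library size alone, each fit without a knockout control and those without treated knockout replicate 1 or 2 or treated parent replicate 3.

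**Figure D2:**
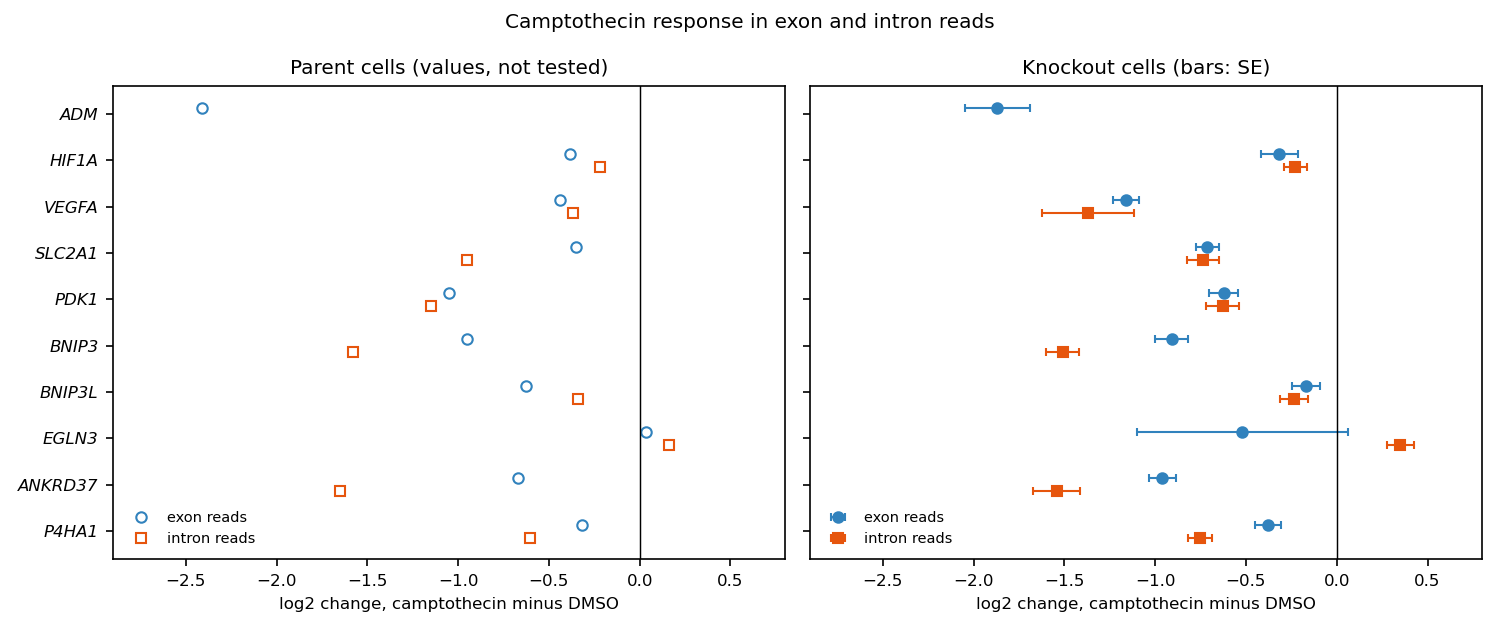
Log2 change with camptothecin in exon reads (circles) and intron reads (squares) of the 10 genes, in parent cells (left, values without a test) and knockout cells (right, with standard errors from edgeR). BNIP3, ANKRD37 and P4HA1 lie clearly further left in intron than in exon reads in both panels, SLC2A1 does so in parent cells, and ADM has exon reads only.

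The intron change exceeded the exon change in both genotypes for BNIP3, ANKRD37, P4HA1, SLC2A1 and PDK1, although the exon and intron values of SLC2A1 (log2 -0.71 and -0.74) and PDK1 (log2 -0.62 and -0.63) were nearly equal in knockout cells. The number of exon reads per intron read of BNIP3 went up with it, from 0.508, 0.56 and 0.493 in knockout controls to 0.782, 0.69 and 0.751 after camptothecin, and from 0.639, 0.578 and 0.525 to 0.946, 0.779 and 0.913 in parent cells. For ANKRD37 it went from 2.37, 2.63 and 2.33 to 3.37, 3.84 and 3.07 in knockout cells and from 2.09, 1.99 and 2.13 to 3.66, 3.75 and 4.68 in parent cells. The treated values lay above all control values in each of these 4 sets. For P4HA1 they did so in knockout cells, at 0.716, 0.69 and 0.754 and then 0.874, 0.895 and 0.857, and overlapped in parent cells, at 0.957, 0.728 and 0.666 and then 0.945, 0.953 and 0.892. For PDK1 the ratios overlapped in both genotypes. For SLC2A1 the parent ratio was 2.23, 1.82 and 1.74 in controls and 2.92, 2.89 and 2.72 after the drug, again without overlap, while the knockout values of 2.55, 2.22 and 2.28 overlapped with 2.26, 2.64 and 1.87 after the drug. These ratios are described without a test, and 3 against 3 libraries could not go below an exact permutation p of 0.1. The ANKRD37 ratios include exon reads that another annotated gene overlaps. Where no other gene overlaps, its knockout exon reads were 525, 491 and 522 in controls and 196, 246 and 223 after the drug. Its intron reads counted that way were 407, 377 and 383 and then 125, 157 and 151, so the ratio rose less.

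The 1 gene that rose in knockout introns was EGLN3 (log2 0.35, adjusted p 0.00226), whose annotated intron of 531459 bases overlaps SPTSSA and 2 other genes. Counted over stretches that no other gene overlaps, its change was -0.01 with an adjusted p of 0.976, within a range of 0.000137 to 0.976 over 15 alternatives. In untreated knockout against parent cells 2 of 9 genes were called lower in introns, PDK1 (log2 -0.26, adjusted p 0.0458) and P4HA1 (log2 -0.23, adjusted p 0.0201), and 0 higher, EGLN3 being the only value above 0 (log2 0.06), where 6.43% and 8.17% of genes tested were. The PDK1 call ended in 10 of 15 alternatives (adjusted p 0.00141 to 0.178) and the P4HA1 call in 5 (0.00477 to 0.138), among them every fit without a knockout control. In parent cells 7 of 9 genes were lower in introns without overlap between groups, where 20% of genes were, and the values were 2.99-fold for BNIP3, 3.14-fold for ANKRD37, 2.22-fold for PDK1 and 1.93-fold for SLC2A1.

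The genes whose pattern over the 12 libraries was most like that of ADM were not among the other 9. Likeness was the root mean square difference of log2 CPM after each gene was centred on its own mean, over 16156 genes that averaged 1 CPM or more. The 5 nearest were RP11-103C16.2 at 0.262, TOX at 0.269, VAV3 at 0.269, PLCB1 at 0.301 and BHLHE40 at 0.304. TOX is a regulator of T cell development, VAV3 a signalling protein of lymphocytes, PLCB1 a phospholipase of G protein signalling and BHLHE40 a repressor known as a HIF-1 target. BHLHE40 stood at 21.6 ± 2.24 CPM in knockout controls and 8.12 ± 0.653 CPM with camptothecin, and was 3.41-fold lower in treated parent cells, values that the choice by likeness to ADM used. Of the other members, PDK1 was nearest at rank 378 with a difference of 0.741, ahead of BNIP3 at rank 429 and ANKRD37 at rank 455. ADM spans 2.718 kb, BHLHE40 6.208 kb and RP11-103C16.2 57.36 kb, whereas VAV3 spans 394 kb, TOX 313.8 kb and PLCB1 836.2 kb. Over genes that averaged 1 CPM or more, the median log2 change in knockout cells was 0.03 for 5318 genes under 10 kb and -0.38 for 768 genes over 200 kb, and in parent cells it was 0.06 and -0.56. For genes of 10 to 50 kb it was 0.04 in knockout and 0.07 in parent cells, and for genes of 50 to 200 kb -0.07 and -0.10. ADM, ANKRD37 and BHLHE40 belong to the class under 10 kb, and BNIP3, VEGFA and SLC2A1 to that of 10 to 50 kb. HIF1A, PDK1, P4HA1 and BNIP3L belong to that of 50 to 200 kb, and no member except EGLN3 spans more than 200 kb. The part of gene span in these changes was not tested.

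The pathway around these genes was read from 5 lists of 91 other genes, of which 75 were tested. In knockout cells 22 fell and 2 rose with camptothecin (9.28% and 7.3% of all genes tested). In parent cells 33 fell and 8 rose (17.1% and 16.8% of all genes tested). Scaled by library size alone, which moved the median of all genes from 0.02 to 0.17 in knockout and from 0.01 to 0.14 in parent cells, 8 list genes rose in knockout and 15 in parent cells. Without parent control replicate 1, 5 rose in knockout cells. Between untreated genotypes 13 list genes were higher and 14 lower in knockout cells, where 8.26% and 7.44% of all genes tested were. Without any 1 of the knockout controls 6 or 7 list genes were lower. Over all genes, that scaling changed the share of called genes that were higher from 44% to 78.6% in knockout cells, from 49.6% to 67.2% in parent cells and from 52.6% to 72.7% between untreated genotypes.

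**Figure D3:**
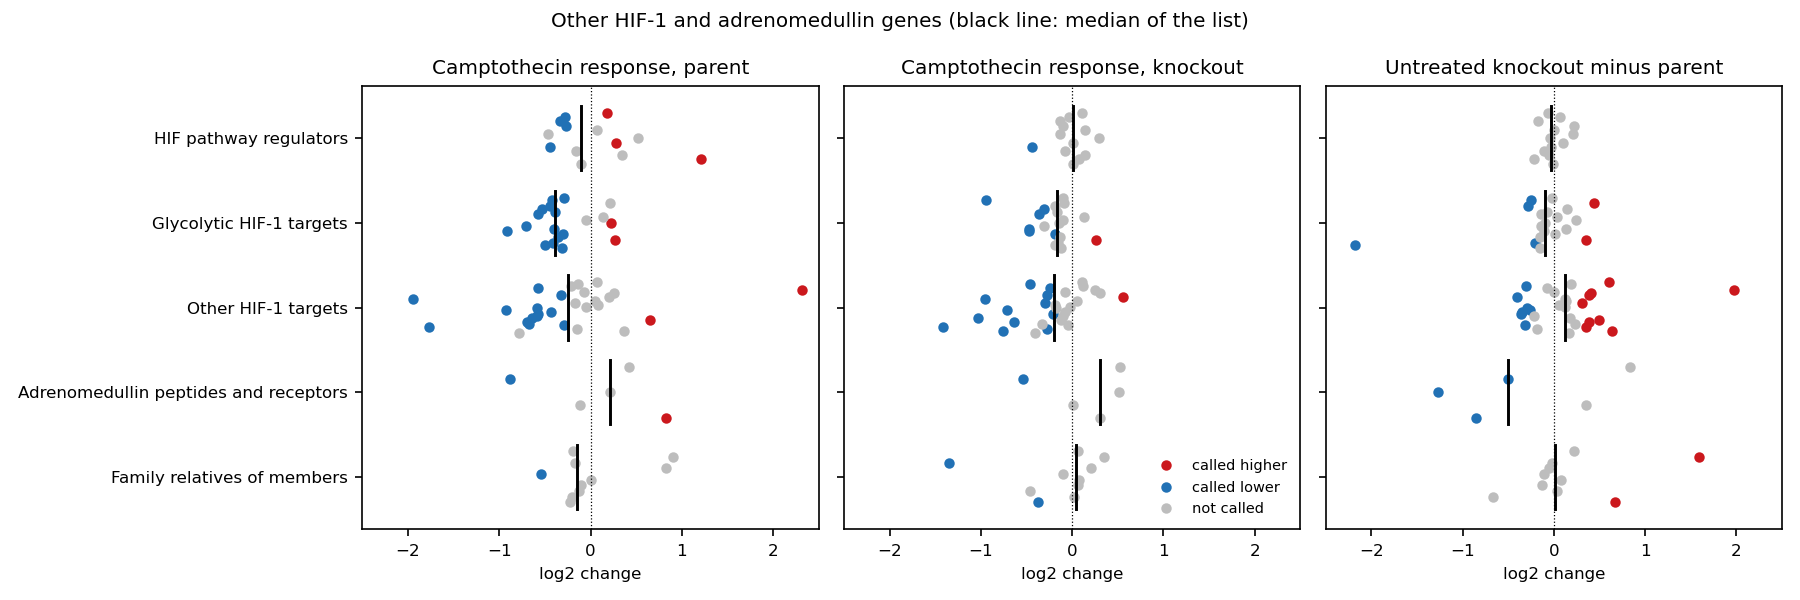
Log2 change of each tested gene (points) in 5 lists of other HIF-1 and adrenomedullin genes, in the parent response, the knockout response and untreated knockout minus parent; red and blue mark genes called higher and lower, grey genes not called, and black lines list medians. Most glycolytic genes lie left of 0 in the parent response. There 14 of 19 were called lower, where 17.1% of all genes tested were, and 6 of 19 in the knockout response, where 9.28% were.

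Among 13 tested regulators of HIF, 1 fell in knockout cells: EGLN1, the main oxygen-sensing prolyl hydroxylase, from 35.5 ± 1.01 to 26.2 ± 0.728 CPM (log2 -0.44, adjusted p 4.38e-05). That count is close to the 9.28% of all genes that fell. In parent cells 4 fell and 3 rose, where 17.1% and 16.8% of all genes did. EGLN1 fell there by 0.45 on the log2 scale (adjusted p 1.27e-05), as did TCEB1 (log2 -0.33) and TCEB2 (log2 -0.28), the elongins of the VHL complex. CITED2, which competes with HIF1A for its coactivators, rose from 4.81 ± 1.15 to 11.2 ± 0.764 CPM (log2 1.21, adjusted p 1.45e-05), and EGLN2 rose by 0.28. VHL also rose (log2 0.18, adjusted p 0.03), but that call ended in 9 of 19 alternatives (adjusted p 0.00012 to 0.141). Between untreated genotypes 0 of 13 were called by edgeR and 0 by DESeq2, and 2 had an unadjusted p under 0.05 in edgeR. Of all genes tested, edgeR called 8.26% higher and 7.44% lower in that comparison. The median of the list was 0.01 in knockout and -0.10 in parent cells.

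Of 19 glycolytic targets, 14 fell and 2 rose in parent cells, and 6 fell and 1 rose in knockout cells. The medians were -0.39 and -0.17. Of all genes tested, 17.1% fell and 16.8% rose in parent cells, and 9.28% fell and 7.3% rose in knockout cells. The response of knockout minus parent cells was called above 0 in 1 of the 19 and below 0 in 1. Of all genes tested, 1.84% and 4.47% were. LDHA, which makes lactate, was at 890 ± 241 CPM in parent controls and 545 ± 5.06 with camptothecin (log2 -0.71, adjusted p 0.000612, and log2 -0.46 without parent control replicate 1, whose level was far above the other 2), HK1, a hexokinase, fell by 0.92 and PFKP, a phosphofructokinase, by 0.57. In knockout cells SLC2A3, a high-affinity glucose transporter, fell from 40.8 ± 1.41 to 21.2 ± 0.528 CPM (log2 -0.94, adjusted p 1.92e-07), HK2 by 0.48 and HK1 by 0.47. ENO2, an enolase, rose in both genotypes, by 0.27 in parent and 0.26 in knockout cells. PFKFB3 rose in parent cells (log2 0.23, adjusted p 0.0422), a call that ended in 12 of 19 alternatives (0.0112 to 0.423) and whose value was 0.12 without parent control replicate 1. Untreated knockout cells were lower in 4 of the list and higher in 2, where 7.44% and 8.26% of all genes were. ALDOC, an aldolase, was 4.52-fold lower (6.7 ± 0.42 against 1.48 ± 0.434 CPM, adjusted p 3.54e-07), and SLC16A3, a lactate exporter, was higher by 0.44. The lower calls of SLC2A3 and PKM ended without any knockout control, among other alternatives (0.0121 to 0.134 and 0.00425 to 0.132), and without parent control replicate 1 these differences were -0.16 and -0.17.

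Of 28 other HIF-1 targets tested, 12 fell and 1 rose in knockout cells, and 13 fell and 2 rose in parent cells, with medians of -0.20 and -0.25, where 9.28% and 7.3% of all genes did in knockout cells and 17.1% and 16.8% in parent cells. In knockout cells BHLHE40 (log2 -1.42, adjusted p 1.02e-07), DDIT4, an inhibitor of mTORC1 (log2 -1.04, adjusted p 2.44e-07), and MIR210HG, the host transcript of a hypoxia microRNA (log2 -0.96, adjusted p 0.00112), fell most, and MXI1, a MYC antagonist, rose (log2 0.55, adjusted p 0.0014). In parent cells MIR210HG fell 3.85-fold (adjusted p 4.64e-07) and GBE1, the glycogen branching enzyme, 1.9-fold (adjusted p 2.83e-09). CXCR4, a chemokine receptor, rose there from 203 ± 7.6 to 318 ± 2.8 CPM (adjusted p 2.03e-07). Between untreated genotypes 9 of the list were higher and 7 lower in knockout cells, where 8.26% and 7.44% of all genes were. ZNF395 was 1.52-fold higher and FAM162A 1.28-fold lower. The untreated calls of ANGPTL4, MXI1 and FUT11 (log2 0.63, -0.40 and -0.35) ended in 7, 4 and 12 of 19 alternatives (adjusted p 0.0183 to 0.155, 0.00269 to 0.0934 and 0.0163 to 0.165), and MXI1 stood at -0.26 without parent control replicate 1.

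The adrenomedullin system beside ADM held 5 tested genes. In knockout cells 1 fell and 0 rose, where 9.28% and 7.3% of all genes tested did. The other 4 log2 changes were above 0, and the median was 0.30. In intron reads 2 of 4 tested rose and 0 fell, where 7.85% and 9.05% of genes did. In parent cells 1 fell and 1 rose (17.1% and 16.8% of all genes). Between untreated genotypes 3 were lower and 0 higher in knockout cells (7.44% and 8.26%). PAM, which amidates adrenomedullin into its active form, fell from 13.3 ± 0.687 to 9.15 ± 0.631 CPM in knockout cells (log2 -0.54, adjusted p 0.000617) and by 0.88 in parent cells. Counted over the whole gene, the knockout change of PAM was 0.10 (adjusted p 9.1e-06 to 0.492 over alternatives). ADM2, a related peptide, rose in parent cells (log2 0.83, adjusted p 0.000302). In untreated knockout cells PAM, ADM2 and CALCRL, the receptor that adrenomedullin uses, were lower by 0.50, 0.86 and 1.27 on the log2 scale. Among 10 tested relatives of the members, 2 fell and 0 rose in knockout cells, where 9.28% and 7.3% of all genes did. They were SLC2A14 (log2 -1.35, adjusted p 0.000155) and FLT1, a VEGF receptor (log2 -0.38, adjusted p 0.0137). SLC2A14 is nearly identical to SLC2A3, so that its reads are uncertain. The FLT1 call ended with library size alone and without knockout control replicate 1 or treated knockout replicate 1 (adjusted p 7.79e-06 to 0.0669 over alternatives). In parent cells 1 of the 10 fell, PDK3, a relative of PDK1, by 0.54, and 0 rose. Between untreated genotypes 2 of the 10 were higher and 0 lower in knockout cells, among them FLT1, higher by 0.67.

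Over the 75 list genes the response of knockout minus parent cells was called above 0 in 5 and below 0 in 7, where 1.84% and 4.47% of all genes tested were. With library size alone 10 were above 0, and the share of called genes above 0 over the whole table went from 29.2% to 46.3%. Without parent control replicate 1 the counts were 14 and 13. Leaving out a knockout control, a treated parent library, or treated knockout replicate 1 or 2 left 0 to 2 above 0, and 4 were below 0 without treated parent replicate 2. CXCR4 and CITED2 rose in parent cells and were not called in knockout cells (log2 -0.12 and 0.07), and their differences were -0.77 and -1.14 (adjusted p 1.06e-05 and 0.00581). Before the drug, CXCR4 was already higher in knockout than parent cells by edgeR's test (log2 0.50, adjusted p 9.99e-06). CITED2 was not called there (log2 -0.21, adjusted p 0.428).

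The T lymphoblast markers also moved with the drug: 8 of 9 were called lower in parent cells and 4 of 9 in knockout cells, where 17.1% and 9.28% of all genes were. The summed level of the 9 was 1269 to 1432 CPM in parent controls and 964 to 991 CPM in treated parent cells, and 1470 to 1476 and 1215 to 1288 CPM in knockout cells. Of the B-lineage markers, VPREB1 fell by 1.37 on the log2 scale in parent and by 0.87 in knockout cells, and CD79A fell by 0.53 in parent cells. The part of these markers in the changes of the hypoxia genes was not tested, and in bulk RNA fewer cells of a kind and less RNA per cell cannot be told apart.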

How the data were processed

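RNA from 12 CCRF-CEM libraries was sequenced in a pooled paired-end run on a HiSeq4000, per the labels' protocols. The library name in the title of parent control replicate 1 follows another pattern than those of the other libraries, and whether it was handled apart was not tested. The authors deposited whole-number counts of reads per gene over exons and introns, per the file headers, and TPM values that were not used. Per the submitters' processing notes, which assign no roles, the tools were STAR 2.5.4a, Picard 2.9.2, Trimmomatic 0.39 and Trim Galore 0.6.2, and the build was hg19. Not given in the sources used here are the counter, the annotation and whether strand was used, so overlapping genes cannot be told apart by strand. Counts above 6 digits carry 6 significant digits, and table names mark duplicates as removed, which compresses counts of short, abundant transcripts.

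Genes missing from a table counted as 0 reads. Copies of pseudoautosomal genes on Y, up to 32 per table, were left out, and 182 names found at several places were kept apart. Exon reads (42439957 to 135592046 per library) entered edgeR 4.0.16 (R 4.3.3) with its filterByExpr, TMM and a robust quasi-likelihood fit with a mean per group over all 12 libraries (coefficient of variation 11.7%), with Benjamini-Hochberg adjustment over 23546 genes; intron reads likewise over 19908. The standard error is the unshrunk log2 change over the root of the F statistic and restates the test. The fit was checked on simulated counts. Alternatives were library size alone, DESeq2 1.42.0, no filter, whole-gene reads, reads no other gene overlaps, only the groups compared, a replicate block, and each library left out. Intron reads no other gene overlaps were added as an alternative after seeing the data.

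Named were the 10 members, SLFN11, up to 3 genes called in each direction per list and comparison that averaged 1 CPM or more, and the 5 genes most like ADM (2 counts added before logs). The edge genes HSPA1A and PTPRD and the overlapping gene SPTSSA were named after their values were seen. The values of 1 list gene are not reported here. Members and lists were chosen with earlier results of these data known. Promoters are from RefSeq (GRCh38.p14), another build than the counts.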

Additional observations from a re-analysis of the deposited data

Results flagged for a closer look

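For 12 genes of the wider lists the response to camptothecin differed between genotypes by edgeR's quasi-likelihood interaction test (knockout minus parent, log2). Of these 12, 9 are given here. The difference was below 0 for SLC2A14 (-1.18, adjusted p 0.0153), CITED2 (-1.14, adjusted p 0.00581), ANGPTL4 (-1.13, adjusted p 0.0193), CXCR4 (-0.77, adjusted p 1.06e-05) and SLC2A3 (-0.52, adjusted p 0.00697). SLC2A3 fell in both genotypes, by 0.42 in parent and 0.94 in knockout cells. SLC2A14 and ANGPTL4 fell in knockout cells (log2 -1.35 and -0.76) and did not pass the test in parent cells (log2 -0.18 and 0.37).

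The difference was above 0 for MIR210HG (0.99, adjusted p 0.0287), ERO1L (0.48, adjusted p 0.0167), HK1 (0.45, adjusted p 0.0425) and FAM162A (0.37, adjusted p 0.0343). MIR210HG, HK1 and FAM162A fell in both genotypes, more in parent cells (log2 -1.94, -0.92 and -0.58) than in knockout cells (log2 -0.96, -0.47 and -0.21), and ERO1L fell in parent cells (log2 -0.58) and not by the test in knockout cells (log2 -0.10). These 4 calls were lost in many fits with 1 library fewer: leaving out 1 library raised the adjusted p of HK1 above 0.05 in 9 of 12 fits, of FAM162A in 8, of MIR210HG in 7 and of ERO1L in 4, up to adjusted p of 0.126, 0.103, 0.0892 and 0.0598. In those fits the difference stayed at 0.43 to 0.48 for HK1, 0.34 to 0.40 for FAM162A, 0.76 to 1.02 for MIR210HG and 0.46 to 0.47 for ERO1L. The libraries concerned were knockout libraries and treated parent libraries, and for MIR210HG also parent control replicate 3. Without parent control replicate 1 the HK1 difference was 0.30. ANGPTL4 lost its call in 5 such fits (up to 0.0659) and SLC2A14 in 1, without treated parent replicate 2 (0.0588). Over all alternatives the adjusted p ran from 0.000689 to 0.126 for HK1, 0.00853 to 0.103 for FAM162A, 0.00289 to 0.0892 for MIR210HG, 0.000175 to 0.0598 for ERO1L, 0.00485 to 0.0659 for ANGPTL4 and 0.00101 to 0.0588 for SLC2A14.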

How the results depend on the processing

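The knockout falls of ADM, VEGFA, SLC2A1, PDK1, BNIP3, ANKRD37 and P4HA1 kept their direction and their call under all 19 alternatives, with ADM between -1.99 and -1.72. Library size alone gave 5967 called genes in the knockout response in place of 3902, 8 list genes called higher there and 15 in parent cells in place of 2 and 8, 10 above 0 in the difference of responses in place of 5, 3 members lower and 8 list genes lower in untreated knockout cells in place of 5 and 14, and 0 members lower in untreated introns in place of 2. It turned the untreated intron differences of BNIP3L to 0.065, HIF1A to 0.004 and SLC2A1 to 0.062. With only the groups compared, 5932 genes were called in the knockout response, 2104 in place of 3697 between untreated genotypes, and 6 list genes were lower there. DESeq2 gave 8 list genes above 0 in the difference of responses. Whole-gene reads turned EGLN3 to 0.395 and PAM to 0.102 in knockout cells, with 1 member and 4 list genes called higher, and ANKRD37 to -0.038 and EGLN3 to 0.066 between untreated genotypes. Intron reads no other gene overlaps turned EGLN3 to -0.011 in knockout and -0.592 in untreated cells and left 0 members higher. Beyond how these fits were built, the cause was not tested.

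Leaving out each library in turn gave 2519 to 6640 called genes in the knockout response, 2385 to 4327 between untreated genotypes, 903 to 3503 in the difference of responses, and 2199 to 4840 and 1978 to 3354 in introns of the knockout response and of untreated cells. The highest knockout and difference counts were those without parent control replicate 1. List genes called higher ran from 2 to 5 in knockout cells, list genes above 0 in the difference from 0 to 14 and below 0 from 4 to 13, list genes lower between untreated genotypes from 6 to 15, members lower there from 3 to 5, and members lower in untreated introns from 0 to 3. Signs turned for EGLN3 in knockout cells (-0.801 to 0.187, positive without knockout control replicate 3), HIF1A between untreated genotypes (-0.272 to 0.024, positive without parent control replicate 1), and in untreated introns BNIP3L (-0.047 to 0.030) and SLC2A1 (-0.097 to 0.062).

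Replicate numbers did not pair the libraries: same-numbered libraries correlated in their deviations by at most 0.033, and not every library correlated best with its own number. The replicate block gave 3723 called genes in the knockout response, 3530 between untreated genotypes and the same 8 and 5 counts of members lower, and among named genes it ended only the call of PFKFB3 in parent cells (adjusted p 0.0529). Depth limited EGLN3 in every group and ADM after camptothecin.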
